A study of Mus musculus with 26 samples.

Results

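*Hox* genes encode homeodomain transcription factors that give cells along the trunk and limbs their positional identity. Mammals carry them in 4 clusters, in which the gene order follows the order of expression along the body axis: low paralogue numbers are used towards the head, and high numbers towards the tail and the tips of the limbs. Outside their domain the clusters are held silent by Polycomb group (PcG) complexes, and they are among the PcG target developmental genes whose DNA methylation by DNMT3A the study examined. The 38 genes described here are *Hox* genes of the *Hoxa*, *Hoxb*, *Hoxc* and *Hoxd* clusters, taken by name from the 52454 gene symbols of the RNA-seq table. They are 10 genes of the *Hoxa* cluster (chromosome 6), 10 of *Hoxb* (chromosome 11), 9 of *Hoxc* (chromosome 15) and 9 of *Hoxd* (chromosome 2), which need not be every gene of a cluster, and were grouped into 7 anterior (paralogues 1 to 3), 15 central (4 to 8) and 16 posterior (9 to 13) genes.

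Expression was measured as FPKM (fragments per transcript length and sequencing depth) in 10 libraries, 1 library per condition. The first 2 are female 2i-MEFs of an F1 background (129X1/SvJ and MSM/Ms), *Dnmt3a* KO or *Dnmt3b* KO: fibroblasts grown from E14.5 chimeric embryos, which came from 2i/L ES cells mutated with CRISPR/Cas9 and injected into ICR blastocysts. Drug selection and GFP sorting were used to keep cells of ES cell origin. Another 4 libraries are MEFs from E14.5 embryos at passage 1, labelled as male C57BL6 and as *Dnmt3a* WT or *Dnmt3a* KO, obtained by crossing *Dnmt3a* heterozygous KO mice (tm1Enl allele). These received DMSO or the EZH2 inhibitor GSK126 (10 µM for 2 days), which blocks the PcG enzyme that methylates histone H3. The last 4 libraries are heart and liver of 1 E14.5 embryo labelled *Dnmt3a* WT and 1 labelled *Dnmt3a* KO. The study lists the *Dnmt3a* WT and KO organs that it used for DNA methylation as male and C57BL6. With 1 library per condition there is no spread between replicates, so that differences below compare libraries and no p-value is given.

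Marker genes matched the labelled tissues: 8 fibroblast markers summed to between 6156 and 20737 FPKM in the 6 fibroblast libraries and to at most 1502 FPKM in heart and liver, 7 cardiomyocyte markers reached at least 22503 FPKM in heart, and 6 hepatocyte markers at least 10948 FPKM in liver. *Dnmt3a* itself measured 4.21 FPKM in *Dnmt3a* KO against 23.9 FPKM in *Dnmt3b* KO 2i-MEFs. MEF, heart and liver libraries labelled *Dnmt3a* KO are called KO-labelled here, since *Dnmt3a* went against this label in MEFs with DMSO (85.7 FPKM, and 26.1 FPKM in WT), in MEFs with GSK126 (84.5 and 19.3 FPKM) and in heart (125 and 55.0 FPKM). In liver it measured 12.7 FPKM, and 53.5 FPKM in WT. These values cover the whole gene and do not separate the altered part of the allele. Directions below are of the libraries as labelled. *Dnmt3b* was low in both 2i-MEF libraries (1.81 FPKM in *Dnmt3a* KO against 0.817 FPKM in *Dnmt3b* KO). The estimated depth lay between 9156778 and 26138109 mapped reads, and 1 FPKM over 2000 transcript bases stands for 16.5 to 47.2 reads.

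DNA methylation in mammals sits mainly at CpG sites, so the 250 bases before the RefSeq start (GRCm38.p6) of 4 genes are printed here 5′ to 3′, with every CpG in capitals. *Hoxa2* had the largest ratio between the 2i-MEF libraries, *Hoxa7* passed 2-fold in all 3 genotype comparisons of fibroblasts (-1.14 on the log2 scale in 2i-MEFs, but 1.45 and 1.30 in MEFs with DMSO and GSK126), and *Hoxa13* and *Hoxd13* had the largest falls in MEFs. They lie at *Hoxa2* (chr6:52164832-52165081, minus strand), *Hoxa7* (chr6:52218574-52218823, minus strand), *Hoxa13* (chr6:52260881-52261130, minus strand) and *Hoxd13* (chr2:74667975-74668224, plus strand).
Hoxa2: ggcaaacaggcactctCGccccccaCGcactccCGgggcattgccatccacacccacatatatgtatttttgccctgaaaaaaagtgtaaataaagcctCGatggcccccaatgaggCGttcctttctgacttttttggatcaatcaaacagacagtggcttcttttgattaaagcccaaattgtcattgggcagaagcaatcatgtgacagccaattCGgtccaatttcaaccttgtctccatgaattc
Hoxa7: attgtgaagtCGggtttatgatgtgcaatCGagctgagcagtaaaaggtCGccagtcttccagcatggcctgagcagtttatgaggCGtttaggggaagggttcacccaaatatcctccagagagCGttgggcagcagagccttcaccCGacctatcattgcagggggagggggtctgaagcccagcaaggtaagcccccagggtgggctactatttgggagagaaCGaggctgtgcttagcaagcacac
Hoxa13: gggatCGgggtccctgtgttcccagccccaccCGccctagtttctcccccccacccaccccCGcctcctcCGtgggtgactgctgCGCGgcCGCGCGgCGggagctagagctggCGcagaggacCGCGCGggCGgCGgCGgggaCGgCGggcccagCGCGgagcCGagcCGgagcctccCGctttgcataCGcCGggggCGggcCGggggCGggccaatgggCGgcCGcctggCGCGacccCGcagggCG
Hoxd13: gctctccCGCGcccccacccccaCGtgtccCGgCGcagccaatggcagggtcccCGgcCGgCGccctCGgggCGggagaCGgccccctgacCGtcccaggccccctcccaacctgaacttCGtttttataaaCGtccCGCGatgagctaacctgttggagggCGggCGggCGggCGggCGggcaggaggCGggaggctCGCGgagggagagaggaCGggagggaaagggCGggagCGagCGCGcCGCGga
*Hoxa13* held 35 CpGs and *Hoxd13* 31 in this window, against 6 in *Hoxa2* and 7 in *Hoxa7*, but these genes were chosen by their ratios and do not stand for their kind: 9 posterior genes had a median of 13 CpGs and 13 anterior and central genes a median of 12, and *Hoxd11*, which was lower in both MEF comparisons, had 2. Of the 38 genes, 22 had a promoter entry, and their median was 12 CpGs, with a range from 2 to 35. Over 27025 genes in the promoter table, from which 1 chromosome without a *Hox* cluster was left out, the median was 6. Shares of all promoters below are of the same genes. The ratio of observed to expected CpGs was at least 0.6 in 11 of the 22 *Hox* genes (50%), and in 34.5% of all promoters. On the study's list of DNMT3A target genes were 14 of the 38 *Hox* genes, 8 of them with a promoter entry; these 8 had a median of 13.5 CpGs and the other 14 a median of 9. The letters TGATTNAT, a site of Hox and Pbx proteins together, were searched on both strands and found in 1 of the 22 windows, that of *Hoxa2*, and in 2.99% of all promoters. The letters TTTATNG, which posterior Hox proteins can bind, were found in 2 of the 22, *Hoxb8* and *Hoxd4*, and in 10.2% of all promoters.

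Fibroblasts and tissues differed most. In the fibroblast libraries, between 27 and 30 of the 38 genes were at 1 FPKM or more, and their summed level lay between 154 and 266 FPKM. In heart and liver, 1 to 3 genes reached 1 FPKM, and the sum lay between 6.35 and 11.7 FPKM. All 6 fibroblast libraries were above all 4 tissue libraries, with at least 1 FPKM, for 23 of the 38 genes (60.5%), while 5.16% of all genes met this rule. Among genes at 1 FPKM or more in all 6 fibroblast libraries, 23 of 23 *Hox* genes met it, against 23.9% of 11326 genes in general. No *Hox* gene had all tissue libraries above all fibroblast libraries with at least 1 FPKM, a pattern that 4.29% of all genes showed. None could, since no *Hox* gene was at 1 FPKM or more in all 4 tissue libraries. Without this minimum the count was also 0. Fibroblasts and organs differ here in culture as well as in tissue, and 2i-MEFs also in strain and sex, and fewer cells of a type cannot be told apart from less RNA per cell.

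**Figure D1:**
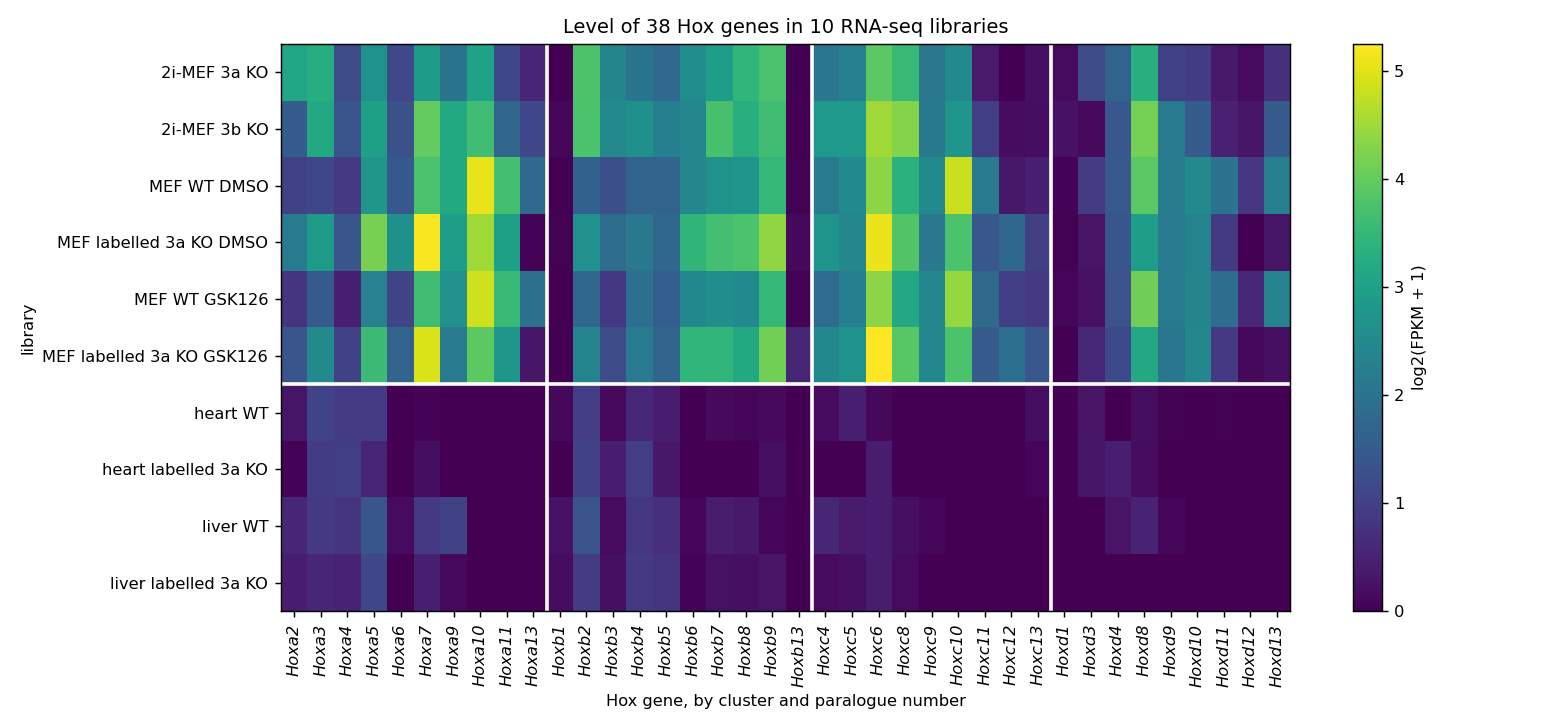
Level of each of the 38 *Hox* genes (columns, by cluster and paralogue number) in the 10 libraries (rows), as log2(FPKM + 1), from dark for 0 to bright for the highest level. The 6 fibroblast libraries above the white line hold 27 to 30 genes at 1 FPKM or more each, and the 4 tissue libraries below it hold 1 to 3.

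The expressed part of each cluster followed a common outline in fibroblasts. In the *Hoxb* cluster, *Hoxb2* to *Hoxb9* were at 1 FPKM or more in every fibroblast library, except *Hoxb3* in WT MEFs with GSK126 (0.809 FPKM), while *Hoxb1*, a gene of the hindbrain, and *Hoxb13*, a gene of the tail end and prostate, stayed under 1 FPKM in all 10 libraries. *Hoxd1* and *Hoxd12* were the other genes under 1 FPKM throughout. In the *Hoxc* cluster, the highest paralogue number at 1 FPKM or more was 10 in both 2i-MEF libraries, 11 in both WT MEF libraries and 13 in both KO-labelled MEF libraries. In the *Hoxd* cluster it was 13 in both WT MEF libraries and 10 in KO-labelled MEFs, and in the *Hoxa* cluster 13 and 11. In the *Hoxb* cluster it was 9 in every fibroblast library. Between WT and KO-labelled MEFs it was thus higher in 1 cluster, lower in 2 and the same in 1. In *Dnmt3a* KO 2i-MEFs it was 11 in the *Hoxa* and 9 in the *Hoxd* cluster, and in *Dnmt3b* KO 2i-MEFs 13 in both. Several of these ends rest on values close to 1 FPKM. *Hoxc12* was at 0.995 FPKM in WT MEFs with GSK126 and *Hoxc13* at 1.001 FPKM in KO-labelled MEFs with DMSO. *Hoxc11* was at 0.958 FPKM in *Dnmt3b* KO and *Hoxd10* at 0.906 FPKM in *Dnmt3a* KO 2i-MEFs. In *Dnmt3b* KO 2i-MEFs, *Hoxd11* and *Hoxd12* were under 1 FPKM (0.391 and 0.234 FPKM) although *Hoxd13* was not.

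The gene with the highest level also differed between the kinds of fibroblast. *Hoxc6*, a gene of the thoracic region, led in both 2i-MEF libraries, with 14.1 FPKM in *Dnmt3a* KO against 21.5 FPKM in *Dnmt3b* KO. *Hoxa10*, a posterior gene of the lumbar region, hindlimb and reproductive tract, led in WT MEFs, with 32.4 FPKM with DMSO and 28.1 FPKM with GSK126. In the KO-labelled MEF libraries the highest genes were *Hoxa7* with DMSO (35.5 FPKM) and *Hoxc6* with GSK126 (37.0 FPKM), both central genes. Posterior genes made up 54.1% and 52.1% of the summed *Hox* level in WT MEFs with DMSO and GSK126, but 31.8% and 31.2% in KO-labelled MEFs and 23.1% and 25.04% in *Dnmt3a* KO and *Dnmt3b* KO 2i-MEFs.

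**Figure D2:**
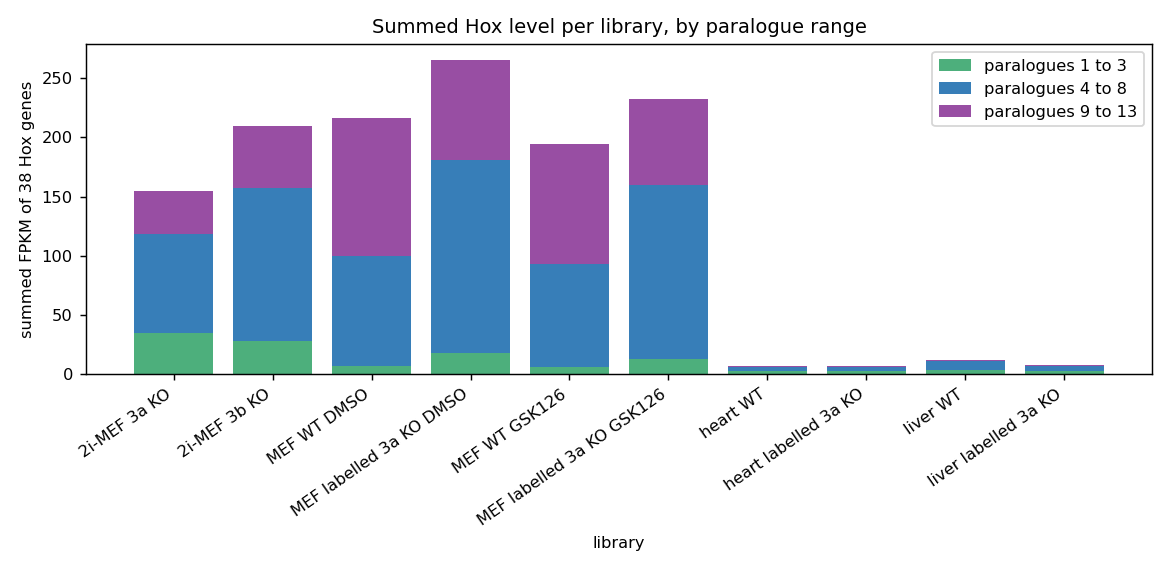
Summed FPKM of the 38 *Hox* genes in each library (bars), divided into anterior, central and posterior paralogues (colours). Posterior genes hold 54.1% of the sum in WT MEFs with DMSO and 31.8% in KO-labelled MEFs, and all tissue bars stay under 12 FPKM.

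KO-labelled and WT MEFs were compared within each treatment. Since *Dnmt3a* RNA was higher in the KO-labelled libraries, the differences are of the labels and cannot be taken as effects of DNMT3A loss. With DMSO, 9 of the 38 genes were at least 2-fold higher in FPKM + 1 in the KO-labelled library, where 1.11% of all genes were, and 4 were at least 2-fold lower, where 0.528% were. Among genes at 1 FPKM or more in at least 1 of the libraries compared, which include 33 of the *Hox* genes and all those called, 4.24% were higher and 2.02% lower. With the ratios centred on all genes the counts were 6 and 5. With GSK126, 4 genes were at least 2-fold higher (0.745% of all genes) and 3 at least 2-fold lower (0.764%), again of 33 at 1 FPKM or more, among which 2.88% and 2.95% of genes in general were called. *Hoxa3*, *Hoxa5*, *Hoxa7* and *Hoxb6* were higher, and *Hoxa13*, *Hoxd11* and *Hoxd13* lower, in both treatments, which share no library; 0.259% and 0.177% of all genes were called so in both. *Hoxa3* (1.005 on the log2 scale under GSK126) and *Hoxb6* (1.02 in both) lay so close to the threshold that, with the ratios centred, 2 genes, *Hoxa5* and *Hoxa7*, were called higher in both, while the 3 lower genes remained. No *Hox* gene was called in opposite directions.

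Central genes were mostly higher and posterior genes mostly lower. Of 15 central genes, 12 had a log2 ratio above 0 in both treatments and 2, *Hoxd4* and *Hoxd8*, below 0 in both. Of 16 posterior genes, 10 were below 0 in both and 4, *Hoxb9*, *Hoxb13*, *Hoxc12* and *Hoxc13*, above 0 in both. The median log2 ratio with DMSO was 0.57 over anterior, 0.59 over central and -0.48 over posterior genes, and with GSK126 it was 0.35, 0.61 and -0.39. The median over all genes at 1 FPKM or more in either library was 0.04 with DMSO and 0.01 with GSK126. Both KO-labelled libraries were above both WT libraries, with at least 1 FPKM, for 18 *Hox* genes (5.72% of all genes), of which 12 are central and 3 posterior; of the 30 *Hox* genes with at least 1 FPKM in both KO-labelled libraries this was 18, while of 12483 such genes it was 24%. Both WT libraries were above both KO-labelled libraries for 9 (4.82% of all genes), out of 28 with at least 1 FPKM in both WT libraries (20.3% of 12470 such genes); 8 are posterior and the other is *Hoxd8*. Of the 14 *Hox* genes on the DNMT3A target list, 9 of which are central, 5 were called higher and 0 lower with DMSO (median log2 ratio 0.50), against 4 and 4 of the other 24 (median 0.01). With GSK126 the counts were 4 and 0 among target genes (median 0.38), and 0 and 3 among the others (median 0.02). Among genes at 1 FPKM or more, 13 of them on the list and 20 not, the medians were 0.57 and 0.18 with DMSO and 0.40 and 0.30 with GSK126.

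**Figure D3:**
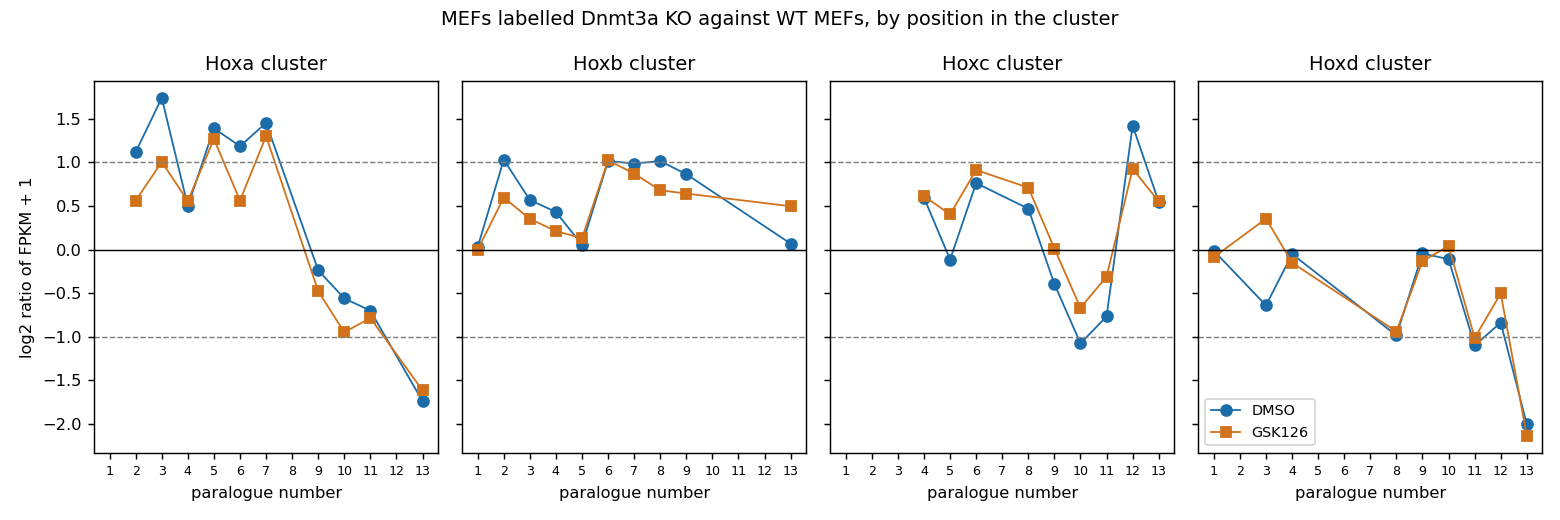
Log2 ratio of FPKM + 1 in KO-labelled MEFs against WT MEFs (vertical axis) by paralogue number (horizontal axis), 1 panel per cluster, with DMSO (circles) and GSK126 (squares); dashed lines mark 2-fold. In the *Hoxa* cluster the ratio is above 0 up to *Hoxa7* and below 0 from *Hoxa9* on, reaching -1.74 and -1.61 at *Hoxa13*, while *Hoxc12* and *Hoxc13* lie above 0.

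Among anterior genes, *Hoxa2*, which patterns the second pharyngeal arch and the hindbrain, measured 1.02 FPKM in WT against 3.40 FPKM in KO-labelled MEFs under DMSO, and 0.754 against 1.59 FPKM under GSK126. On its 1 annotated transcript these values stand for 29 reads (95% Poisson interval 19.4 to 41.6) and 137 reads (115 to 162) with DMSO; such intervals cover counting error only. Its ratio was past 2-fold with DMSO (1.12 on the log2 scale) but not with GSK126 (0.56). *Hoxa3*, which is needed for the thymus and parathyroid, was at 1.16 and 6.22 FPKM under DMSO, and 1.78 against 4.58 FPKM under GSK126. Its gene model overlaps those of *Hoxa4*, *Hoxa5* and *Hoxa6* on the same strand, and its reads are uncertain to that extent. *Hoxb2* measured 2.101 FPKM in WT against 5.33 FPKM in KO-labelled MEFs under DMSO, and 2.43 against 4.19 FPKM under GSK126.

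Among central genes, *Hoxa5*, a gene of the cervical and upper thoracic region and of the lung, stood for 176 reads (95% Poisson interval 151 to 204) in WT and 727 reads (675 to 782) in KO-labelled MEFs with DMSO. With GSK126 it stood for 130 reads (109 to 154) and 392 reads (354 to 433). *Hoxa7* was at 12.3 and 35.5 FPKM under DMSO, and 11.5 against 29.8 FPKM under GSK126. Both genes were thus higher in each KO-labelled library than in either WT library. *Hoxa6*, which lies between them, was at 1.74 and 5.22 FPKM under DMSO, and 1.151 against 2.18 FPKM under GSK126, past 2-fold with DMSO only. Both *Hoxa5* and *Hoxa6* overlap the gene model of *Hoxa3* on the same strand, so their reads are uncertain to that extent. In the *Hoxb* cluster, *Hoxb6* was at 4.37 and 9.86 FPKM under DMSO, and 4.42 against 10.0 FPKM under GSK126. *Hoxb8* was at 5.66 and 12.5 FPKM under DMSO, and 4.70 against 8.13 FPKM under GSK126. *Hoxb4*, *Hoxb7*, *Hoxc4*, *Hoxc6* and *Hoxc8* had ratios above 0 but short of 2-fold in both treatments, from 0.21 at *Hoxb4* under GSK126 to 0.99 at *Hoxb7* under DMSO. *Hoxd8*, alone among the central genes, was lower by nearly the threshold in both, at 14.02 FPKM in WT against 6.59 FPKM in the KO-labelled library under DMSO, and 16.2 against 7.97 FPKM under GSK126.

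The posterior genes of the *Hoxa* and *Hoxd* clusters showed the largest falls. *Hoxd13*, which patterns the digits, measured 3.90 FPKM in WT against 0.222 FPKM in KO-labelled MEFs under DMSO, and 4.12 against 0.166 FPKM under GSK126. These values stand for 160 reads (95% Poisson interval 136 to 187) against 13 reads (6.92 to 22.2) with DMSO, and for 182 reads (157 to 210) against 8 reads (3.45 to 15.8) with GSK126. *Hoxa13*, its paralogue in the hand and foot plate and the urogenital tract, was at 2.46 and 0.0356 FPKM under DMSO, and 2.83 against 0.251 FPKM under GSK126. For *Hoxa13*, 97 reads at most in WT and 2 reads at most in the KO-labelled library lay behind the values with DMSO. *Hoxd11*, a gene of the forearm and lower leg, was at 2.99 and 0.862 FPKM under DMSO, and 2.67 against 0.817 FPKM under GSK126. *Hoxc10*, a lumbar and hindlimb gene, was at 27.4 and 12.5 FPKM with DMSO, past 2-fold, and at 20.5 and 12.5 FPKM with GSK126, which was not. It overlaps the gene model of *Hoxc5*, which spans several genes of the cluster, so its reads are uncertain to that extent. *Hoxd9* and *Hoxd10*, between *Hoxd8* and *Hoxd11*, stayed within 2-fold, as did *Hoxc9* (3.30 to 4.66 FPKM), and *Hoxd10* was between 4.10 and 4.50 FPKM in all 4 MEF libraries.

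*Hoxc12* went the other way. It was at 0.268 FPKM (4 reads) in WT MEFs with DMSO and 2.40 FPKM (51 reads, 95% Poisson interval 37.97 to 67.06) in KO-labelled MEFs, and at 0.995 FPKM (16 reads) and 2.79 FPKM (49 reads) with GSK126. Its neighbour *Hoxc13*, known from hair and nails, was at 0.369 and 1.001 FPKM under DMSO, and 0.822 against 1.67 FPKM under GSK126, short of 2-fold in FPKM + 1. The end of the *Hoxc* cluster was thus higher in the libraries in which the ends of the *Hoxa* and *Hoxd* clusters were lower.

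Genes that mark limbs and levels of the body axis moved in the same libraries. Of 25 such genes, 7 were at least 2-fold lower and 1 was higher in KO-labelled MEFs with DMSO, and 5 were lower and 1 higher with GSK126. *Pitx1*, a determinant of hindlimb identity, measured 50.5 FPKM in WT against 10.9 FPKM in KO-labelled MEFs under DMSO, and 32.5 against 14.4 FPKM under GSK126. With it in the hindlimb acts *Tbx4*, which was at 15.5 and 3.75 FPKM under DMSO, and 12.8 against 3.35 FPKM under GSK126. *Msx1*, *Isl1* and *Tbx18* were also lower in both treatments, *Shox2* and *Alx4* with DMSO, and *Alx1* was the gene that was higher in both. *Tbx5*, the forelimb counterpart of *Tbx4*, was between 3.64 and 4.34 FPKM in all 4 MEF libraries. Of 5 mesothelial and epicardial markers, 3 (*Wt1*, *Upk3b* and *Lrrn4*) were higher with DMSO and 4 with GSK126, and *Tbx18* was lower in both. Their sum was 50.4 FPKM in WT and 99.1 FPKM in the KO-labelled library with DMSO, and 58.4 and 227 FPKM with GSK126, and none of the 5 was at 0. Of 8 skeletal muscle markers, *Acta1* and *Tnnt3* were called higher with DMSO and none with GSK126, and the sum was 20.3 FPKM in WT against 57.0 FPKM in KO-labelled MEFs with DMSO and 21.1 against 33.7 FPKM under GSK126. *Myod1*, which defines that lineage, was at or under 0.134 FPKM in all 4 MEF libraries. Of 7 cardiomyocyte markers, *Tnnt2* was higher with DMSO and *Myl7* with GSK126, with sums of 1.79 to 9.56 FPKM and *Nkx2-5* at or under 0.195 FPKM. Of 6 neural markers, *Map2* was lower with GSK126. None of the 8 fibroblast markers was called with DMSO, and 2, *Col3a1* and *Lum*, were lower with GSK126. The part of these genes, and of the parts of the embryo they mark, in the *Hox* differences was not tested, and the genotype and the culture cannot be told apart.

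**Figure D4:**
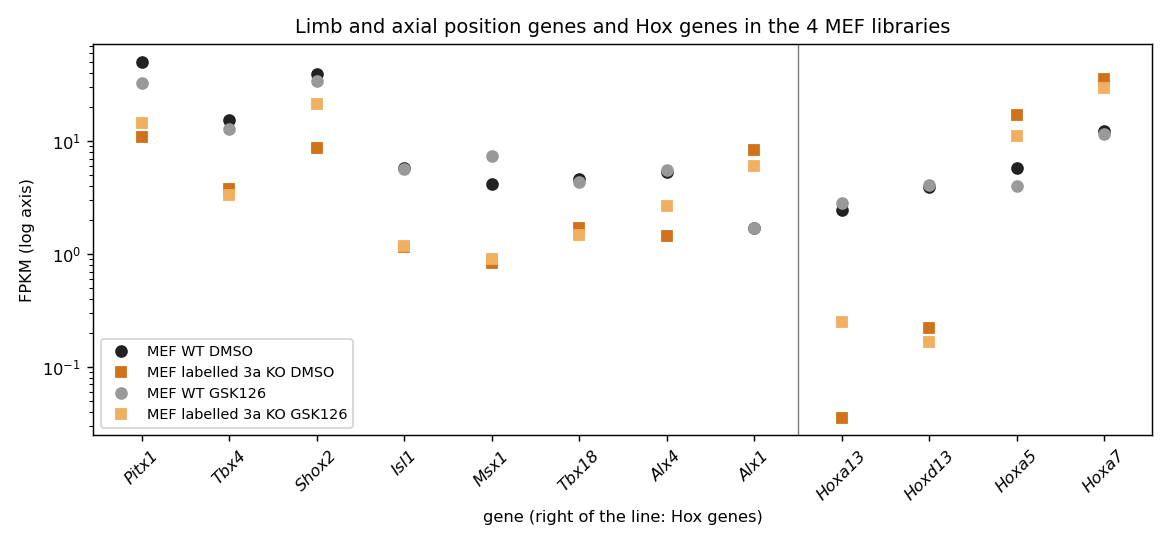
FPKM on a log axis of 8 limb and axial position genes called in MEFs and of 4 *Hox* genes (horizontal axis), in WT MEFs (circles) and KO-labelled MEFs (squares), with DMSO (darker) and GSK126 (lighter), 1 point per library. *Pitx1* and *Hoxd13* have both squares below both circles, and *Alx1*, *Hoxa5* and *Hoxa7* have both squares above.

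The partners of Hox proteins on DNA stayed within 2-fold. None of 8 cofactor genes of the *Pbx*, *Meis* and *Pknox* families was called between genotypes in MEFs or between treatments, and their summed level lay between 195 and 221 FPKM in the 4 MEF libraries. Single cofactors moved more than the sum: *Pbx3* went from 43.0 FPKM in WT to 27.4 FPKM in KO-labelled MEFs with DMSO, and *Pknox2* from 9.36 to 5.20 FPKM with GSK126. Of 12 genes that flank the clusters, none was called with DMSO and 1, *Cbx5*, was lower with GSK126 (13.5 against 28.7 FPKM). Of 17 other transcripts from within the clusters, *Hoxaas3* and the short *Mir196a-1* hairpin were higher with DMSO and *Gm28309* and *Mir196a-1* lower with GSK126, in KO-labelled against WT MEFs; *Hoxaas3* and *Mir196a-1* were also lower with GSK126 than with DMSO in KO-labelled MEFs. *Mir196a-1* was at 18.1 FPKM in WT against 50.7 FPKM in KO-labelled MEFs with DMSO, and at 33.5 against 0 FPKM with GSK126. On a transcript this short, few reads make a large FPKM value. The other microRNA genes were listed at 0 in all 10 libraries.

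GSK126 against DMSO asks what inhibition of EZH2 did to these PcG targets. No *Hox* gene was at least 2-fold higher or lower in either genotype. Over all genes, 0.559% were higher and 0.408% lower in WT MEFs, and 0.522% higher and 0.846% lower in KO-labelled MEFs. In WT, the largest ratios were 0.65 at *Hoxc12* and -0.67 at *Hoxd3* (0.182 FPKM with GSK126 and 0.879 FPKM with DMSO). In the KO-labelled libraries, they were 0.43 at *Hoxb13* (0.448 and 0.0778 FPKM) and -0.97 at *Hoxa6*. Over the 38 genes the median log2 ratio lay at -0.11 in WT and at -0.04 in KO-labelled MEFs. Of the genes with at most 4 reads in WT MEFs with DMSO, *Hoxb1* and *Hoxd1* were at or under 0.0622 FPKM in both GSK126 libraries. *Hoxb13* stood for 1 read in both WT libraries, and in KO-labelled MEFs for 4 reads (95% Poisson interval 1.09 to 10.2) with DMSO and 19 reads (11.4 to 29.7) with GSK126. *Hoxc12* stood for 4 reads (1.09 to 10.2) with DMSO and 16 reads (9.15 to 26) with GSK126 in WT, and for 51 and 49 reads in KO-labelled MEFs. Both stayed short of 2-fold in FPKM + 1 between treatments. No *Hox* gene had both GSK126 libraries above both DMSO libraries with at least 1 FPKM, as 3.88% of all genes had (16.4% of those with at least 1 FPKM in both GSK126 libraries, 25 of them *Hox* genes). *Hoxa9*, *Hoxb3* and *Hoxd4* had both DMSO libraries above both GSK126 libraries, as 4.6% of all genes had (19.4% of those with at least 1 FPKM in both DMSO libraries, 27 of them *Hox* genes). These 4 comparisons of MEFs use the same 4 libraries and are not independent.

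*Dnmt3a* KO and *Dnmt3b* KO 2i-MEFs were compared with each other, since the series holds no RNA-seq library of WT 2i-MEFs. *Hoxa2* and *Hoxd3* passed 2-fold upwards in *Dnmt3a* KO, as 1.43% of all genes did, and *Hoxa7*, *Hoxa9* and *Hoxd9* passed it downwards, as 0.906% did. Of genes at 1 FPKM or more in at least 1 of the libraries compared, 30 of them *Hox* genes, 5.52% were higher and 3.49% lower, so that the 2 higher *Hox* genes are a share near the background. *Hoxa2* stood for 129 reads (95% Poisson interval 108 to 153) in *Dnmt3a* KO and 27 reads (17.8 to 39.3) in *Dnmt3b* KO. It was higher there than in any other library of the series, the next being KO-labelled MEFs with DMSO, while its neighbour *Hoxa3* was at 8.60 FPKM in *Dnmt3a* KO against 8.05 FPKM in *Dnmt3b* KO. *Hoxd3*, which patterns the uppermost vertebrae, was at 1.32 and 0.0915 FPKM, behind which lay at most 40 and 2 reads, and it shares its locus with *Hoxd4* (2.19 and 1.69 FPKM). *Hoxa7* was at 6.22 FPKM in *Dnmt3a* KO against 14.9 FPKM in *Dnmt3b* KO. *Hoxa9* was at 3.03 and 8.16 FPKM. *Hoxd9* was at 1.04 and 3.44 FPKM, or 22 and 61 reads. Of the 17 other cluster transcripts, *Hoxaas2* and *Mir196a-1* were called higher and *Hotairm1*, *Hoxa11os* and *Gm28309* lower in *Dnmt3a* KO. *Hotairm1* measured 13.9 FPKM there and 35.3 FPKM in *Dnmt3b* KO, and the short *Mir196a-1* 29.7 and 0 FPKM.

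Beyond the genes past the threshold, central and posterior genes were mostly lower in *Dnmt3a* KO 2i-MEFs. The log2 ratio was below 0 for 12 of 15 central and 13 of 16 posterior genes, with medians of -0.54 and -0.39, and for 3 of 7 anterior genes, with a median of 0.01. The median of all genes at 1 FPKM or more in either library was 0.03. By cluster, the summed FPKM was 42.2 in *Dnmt3a* KO and 57.8 in *Dnmt3b* KO for *Hoxa*, 40.1 and 62.5 for *Hoxc*, and 15.7 and 26.6 for *Hoxd*. The *Hoxb* cluster differed least, with 56.2 and 63.1 FPKM. Of the 14 *Hox* genes on the study's DNMT3A target list, which was made from methylation in 2i-MEFs, 1 was called higher and 2 lower, with a median log2 ratio of -0.22; of the other 24, 1 was higher and 1 lower, with a median of -0.21. Among those at 1 FPKM or more in either library, which are all 14 target genes and 16 of the others, the medians were -0.22 and -0.58. Of the limb and axial position genes, *Msx1* and *Dlx5* were higher and *Shox2*, *Tbx3* and *Emx2* lower in *Dnmt3a* KO. Of the cell type markers, *Wt1* was called lower (1.57 against 6.22 FPKM), *Acta1* lower (5.31 against 17.0 FPKM) and *Tnnt3* higher (8.42 against 2.41 FPKM). The sums of the mesothelial and epicardial markers were 13.1 and 20.01 FPKM and those of the skeletal muscle markers 13.9 and 19.97 FPKM, with *Myod1* at 0 and 0.0657 FPKM. The part of these genes in the *Hox* values was not tested.

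**Figure D5:**
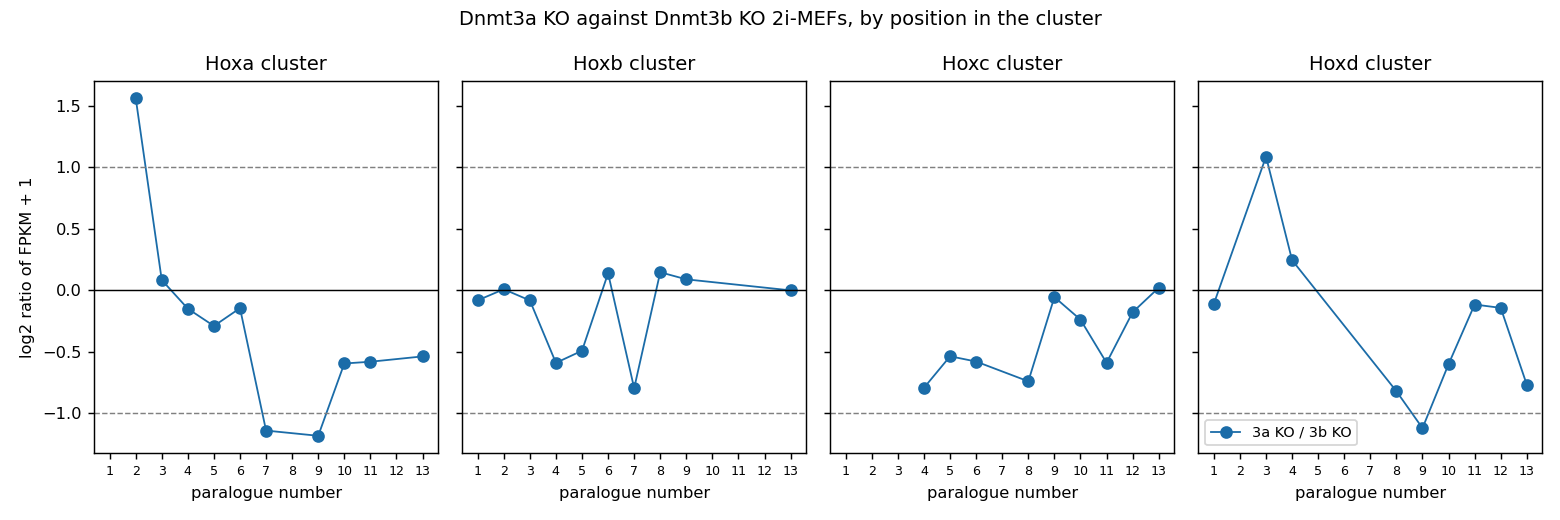
Log2 ratio of FPKM + 1 in *Dnmt3a* KO against *Dnmt3b* KO 2i-MEFs (vertical axis) by paralogue number (horizontal axis), 1 panel per cluster; dashed lines mark 2-fold. *Hoxa2* (1.57) and *Hoxd3* (1.09) lie above the upper line, *Hoxa7*, *Hoxa9* and *Hoxd9* below the lower one, and most central and posterior genes lie below 0.

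Set beside the MEFs, which differ from 2i-MEFs in strain, sex, labelled genotype and origin, *Hoxa3*, *Hoxb2*, *Hoxb3* and *Hoxb5* were higher in both 2i-MEF libraries than in all 4 MEF libraries, as 6.58% of all genes were. *Hoxa10*, *Hoxa11*, *Hoxc10*, *Hoxc11* and *Hoxd10* were higher in all 4 MEF libraries, as 5.31% of all genes were. *Hoxb2* was at 12.7 and 12.6 FPKM in 2i-MEFs and at 2.101 to 5.33 FPKM in MEFs, whereas *Hoxa11* was at 1.21 and 2.298 FPKM in 2i-MEFs and at 5.85 to 11.8 FPKM in MEFs. Among genes with at least 1 FPKM throughout the higher set, these were 4 of 26 *Hox* genes against 28.3% of all genes, and 5 of 25 against 23.2%, so that neither number stands above the background. The genes higher in 2i-MEFs are anterior or, for *Hoxb5*, central, and those higher in MEFs are posterior.

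In heart and liver the question was whether the clusters were released in the KO-labelled embryo. No *Hox* gene was at least 2-fold higher or lower in FPKM + 1 in either organ, where 0.576% of all genes were higher and 0.488% lower in heart, and 0.351% and 0.581% in liver. With levels this low, a gene at 0.5 FPKM in 1 library would have had to reach 2 FPKM in the other to be called. In heart, the largest ratios were 0.43 at *Hoxd4* (0.351 FPKM in the KO-labelled library and 0.000178 FPKM in WT) and -0.47 at *Hoxc5* (0 and 0.382 FPKM). Cluster by cluster, *Hoxb* summed to 2.24 FPKM in WT and 2.75 FPKM in the KO-labelled heart, *Hoxa* to 3.13 and 2.50 FPKM, *Hoxc* to 0.708 and 0.386 FPKM and *Hoxd* to 0.395 and 0.707 FPKM. *Hotairm1*, a noncoding transcript from the anterior end of the *Hoxa* cluster, was the 1 cluster transcript called in heart (10.8 FPKM in WT against 3.82 FPKM in KO-labelled heart), and none was called in liver. In liver, the largest were 0.19 at *Hoxb9* and -0.87 at *Hoxa9*, with 0.103 FPKM in the KO-labelled library and 1.01 FPKM in WT. Of the 38 genes, 19 had a ratio below 0 in liver, 6 above and 13 were at exactly 0 in both libraries, and 1 of those above was *Hoxc10*, whose 4.36e-08 FPKM in the KO-labelled liver stands for 0 reads; the median log2 ratio was -0.02 over the 38 genes and -0.08 over all genes at 1 FPKM or more in either library.

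*Hoxa9* was also the 1 gene called between organs, listed at 0 in heart and at 1.01 FPKM in liver of the WT embryo, in a comparison in which 5.71% of all genes were called higher and 5.85% lower in heart; it was not called with the ratios centred, since the median of all genes lay at -0.13. No gene was called between organs of the KO-labelled embryo, where 6.59% of all genes were higher and 5.55% lower in heart. The WT liver library also held skeletal muscle markers: the 8 markers summed to 74.5 FPKM there and to 2.85 FPKM in the KO-labelled liver, 7 of 8 were at least 2-fold lower in the latter, and *Myod1* was at 2.55 FPKM and at 0. The 8 fibroblast markers summed to 540 FPKM in WT liver and 293 FPKM in KO-labelled liver, with *Col3a1* and *Thy1* called lower in the latter. The 7 cardiomyocyte markers summed to 69.6 and 16.2 FPKM, with *Myh7*, *Tnnt2* and *Actc1* called lower. The part of these 3 marker lists in the *Hoxa9* values, and in the higher *Hox* sum of WT liver (11.7 against 7.04 FPKM), was not tested.

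The genes that were detected in the organs were mainly anterior and central. *Hoxa5*, the only one with both liver libraries above both heart libraries and at least 1 FPKM (11.8% of all genes were so, and 10.9% the other way), was at 1.64 and 1.18 FPKM in liver and at 0.881 and 0.464 FPKM in heart, or 72, 51, 28 and 12 reads. No other *Hox* gene was at 1 FPKM or more in both liver libraries, and none was in both heart libraries, so that no other could meet either rule. *Hoxb2* was between 0.874 and 1.55 FPKM in the 4 tissue libraries, and *Hoxa4* between 0.446 and 0.977 FPKM. By contrast, 9 of the 12 genes of paralogues 10 to 13 were at 0 in all 4 tissue libraries, among them *Hoxa10*, *Hoxa11* and *Hoxd13*. A count of 0 on *Hoxd13* leaves levels of up to 3.69 reads possible by the exact Poisson interval. Of the 8 cofactors, 3 were at least 2-fold higher in heart than in liver of the WT embryo (*Meis2*, *Meis3* and *Pknox2*) and *Pbx4* was lower; *Meis2* was at 72.3 FPKM in heart and 11.3 FPKM in liver. The organs in which nearly all *Hox* genes were under 1 FPKM thus held 95.9 to 247 FPKM of cofactor transcripts.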

How the data were processed

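RNA-seq was analysed in 10 libraries. The 16 DNA methylation samples were not analysed here, and the series holds no RNA-seq library of WT 2i-MEFs. Per the study's methods, the authors used cutadapt for trimming, tophat with bowtie2 for mapping to mm10 and cufflinks, with a GENCODE annotation, for FPKM, after a filter on mapping quality; the submitters' processing notes list cutadapt 1.9.1, TopHat2 2.1.0, Bowtie2 2.2.8 and 2.2.5 and Cufflinks 2.2.1. The deposited table holds 1 FPKM value per gene and library, without read counts. The strand setting of cufflinks was not given in the sources used here, so that *Hox* genes and their antisense transcripts may share reads. Coordinates are given from 1, so that 1 was added to each start. Of 52609 rows, those with the same symbol were summed to 52454 genes; each of the 38 *Hox* genes has 1 row.

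Depth was estimated from low FPKM values of genes with 1 transcript (GENCODE M21) of at least 1500 bases, at a fragment length of 196 bases, as the depth at which values are whole numbers of reads; 96.3% to 98.1% of them lay within 0.1 read of a whole number, where 20% would by chance. Reads are given with exact Poisson intervals for the 15 *Hox* genes with 1 transcript, and otherwise as a range over transcripts. Among these 15, *Hoxa4*, *Hoxa5*, *Hoxa6* and *Hoxc10* overlap another *Hox* gene on the same strand, which the intervals do not allow for.

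Comparisons used the log2 ratio of FPKM + 1 over all genes and a threshold of 2-fold. The share of all genes past it stands beside the first count of *Hox* genes in each comparison. Because each condition has 1 library, no test was run. The *Hox* genes, their division by paralogue number, the marker and position lists and the rule for named genes (any *Hox* gene, with those past 2-fold or, failing that, with the largest ratios in full; of other lists, those past 2-fold) were chosen with earlier results of these data known. *Tbx5*, *Pbx3*, *Myod1* and *Nkx2-5*, and *Pknox2* in MEFs, fall outside it and were chosen after their values were seen. The study's DNMT3A target list was chosen from methylation in its own 2i-MEFs, of the same knockout genotypes as the 2i-MEF libraries used here. Results on 1 gene of the lists are not reported here. Promoters came from RefSeq. Python 3.11.15, pandas 2.3.3, numpy 2.4.6 and scipy 1.17.1 were used.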

Additional observations from a re-analysis of the deposited data

How the results depend on the processing

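No analysis paired by replicate was possible because the groups share no 2 replicate numbers, each having 1 replicate. Heart and liver do pair by embryo, with 1 embryo labelled WT and 1 labelled *Dnmt3a* KO, and were compared within each. Additive models of genotype and treatment over the 4 MEF libraries, or of embryo and organ over the 4 tissue libraries, would leave 1 residual degree of freedom and were not run. A comparison of 1 library with another cannot be made without either of them, whereas libraries could be left out of the comparison of fibroblasts with tissues. Of 58 alternatives, 41 left the count of *Hox* genes within 1.5 times the reported one and 17 did not. With a pseudocount of 0.1, which lets genes of a few reads pass, the counts of genes changed at least 2-fold were 9 in 2i-MEFs, 13 between genotypes of MEFs with GSK126, 2 and 4 between treatments in WT MEFs and in those labelled *Dnmt3a* KO, 6 in heart, 5 in liver, and 12 and 13 between organs of the WT embryo and of that labelled *Dnmt3a* KO. With a 1.5-fold threshold they were 14 in 2i-MEFs, 22 and 19 between genotypes of MEFs with DMSO and GSK126, 2 and 5 between treatments, 1 in liver and 2 between organs of the WT embryo. Centring on all genes left 0 called between organs of the WT embryo. At a minimum of 0.5 FPKM, 2 genes were expressed in all 4 tissue libraries. Leaving out the WT liver library, an alternative chosen after seeing the data, left 23 genes higher in all fibroblast libraries than in all tissue libraries; without the 2i-MEF or without the GSK126 libraries these were 25. Depth limits the genes of a few reads: a single read on 2000 bases was worth 0.0605 FPKM in *Dnmt3b* KO 2i-MEFs and 0.0212 FPKM in WT liver.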
